A study of Mus musculus with 9 samples.

Results

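Vomeronasal receptor genes lie in tandem clusters in the mouse genome, and the results concern the intervals that KDM6A and IgG immunoprecipitation gave in and around them. An interval was counted when it overlapped, by 1 bp or more, the span of a Vmn1r or Vmn2r protein-coding gene extended by 5 kb on each side, which is called its window here. The RefSeq table of the mm10 assembly held 351 such genes on the autosomes other than 11, of which 229 were Vmn1r and 122 were Vmn2r. Of the 142062 intervals in the 5 deposited lists, 606 met the rule. They numbered 164 in control library 1, 95 in control library 2, 99 in MTX library 1, 129 in MTX library 2 and 119 in the IgG library. Vmn1r windows held 198 of them and Vmn2r windows held 408, and no interval touched windows of both classes.

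The study measured binding of KDM6A by chromatin immunoprecipitation with sequencing in Sv129 mouse embryonic stem cells, a line grown from the early embryo and kept undifferentiated with leukemia inhibitory factor. The control group had 2 KDM6A libraries from cells whose genotype is given as WT. The MTX group had 2 KDM6A libraries from cells given 0.12 µM MTX for 24 h, and the labels put "folate deficiency" in their genotype field, although all samples come from the same line. The treatment protocol is worded alike for every sample, so the groups were taken from the titles, and the genotype field separates the samples in the same way. There were also 1 IgG library from the MTX cells, which is the antibody background, and 4 input libraries, whose reads appear only as the background counts of the intervals. No IgG library of control cells was analysed here, so the antibody background is measured in 1 group only. An interval list holds no expression values, so the identity of the cells was not checked. The lists held between 3251202 and 4192029 immunoprecipitated reads within intervals, and the full depth of a library is unknown.

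Vomeronasal receptors are G protein-coupled receptors with which sensory neurons of the vomeronasal organ detect pheromones and signals from other animals. Type 1 receptors (Vmn1r) have an intronless coding sequence and are coexpressed with the G protein subunit encoded by Gnai2. Type 2 receptors (Vmn2r) have a long extracellular domain encoded by several exons and are coexpressed with the subunit encoded by Gnao1. KDM6A, also known as UTX, removes methyl groups from lysine 27 of histone H3, a mark laid down at silent genes by Polycomb. Receptor genes are near-identical copies of one another in places, so reads counted at one gene may come from another, and the sources used here do not say how such reads were assigned.

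The 250 bases before the annotated start are printed for 7 of the genes named in the results. They come from RefSeq sequence of the GRCm38.p6 assembly, which is the same build as mm10. Vmn2r112, Vmn2r74, Vmn2r9 and Vmn1r235 were the receptor genes whose promoter, taken as 250 bases before to 50 bases after the start, was overlapped by intervals of all 5 libraries. Vmn2r14 had promoter intervals in both control libraries and in no other library, and Vmn1r15 and Vmn2r84 had them in both MTX libraries and in no other library. Vmn2r86 also had the former pattern and Vmn2r111 the latter, and their sequences are not printed, since no control-only or MTX-only region of intervals joined across libraries lay at them. The share of all promoters with each of these patterns is not given here, so the patterns cannot be set against a background. Each sequence is written 5′ to 3′ on the strand of its gene. Capitals mark a 33-base run that Vmn2r9, Vmn2r14 and Vmn2r84 have in common, and the TATAAA motif in Vmn1r15.
Vmn2r112, chr17:22600898-22601147, + strand: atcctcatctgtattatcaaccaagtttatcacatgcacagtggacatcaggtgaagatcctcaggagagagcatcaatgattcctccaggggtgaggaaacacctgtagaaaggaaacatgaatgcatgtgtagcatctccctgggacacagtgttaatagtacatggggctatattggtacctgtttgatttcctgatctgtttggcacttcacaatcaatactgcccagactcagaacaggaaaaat
Vmn2r74, chr7:85961483-85961732, - strand: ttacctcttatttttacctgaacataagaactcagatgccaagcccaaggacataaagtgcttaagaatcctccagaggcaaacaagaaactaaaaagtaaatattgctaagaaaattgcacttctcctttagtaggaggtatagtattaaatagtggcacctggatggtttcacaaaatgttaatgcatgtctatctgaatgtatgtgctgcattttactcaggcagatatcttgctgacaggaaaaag
Vmn2r9, chr5:108852511-108852760, - strand: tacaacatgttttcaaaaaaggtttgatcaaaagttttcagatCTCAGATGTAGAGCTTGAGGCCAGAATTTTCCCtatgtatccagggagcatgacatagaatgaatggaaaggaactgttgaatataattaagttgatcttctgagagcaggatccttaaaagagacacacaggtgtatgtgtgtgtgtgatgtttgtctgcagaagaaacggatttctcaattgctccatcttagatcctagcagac
Vmn1r235, chr17:21260177-21260426, + strand: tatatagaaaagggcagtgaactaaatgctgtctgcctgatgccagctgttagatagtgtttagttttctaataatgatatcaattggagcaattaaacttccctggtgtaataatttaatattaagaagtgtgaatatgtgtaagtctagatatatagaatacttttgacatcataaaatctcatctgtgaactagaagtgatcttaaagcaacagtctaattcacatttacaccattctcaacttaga
Vmn2r14, chr5:109224623-109224872, - strand: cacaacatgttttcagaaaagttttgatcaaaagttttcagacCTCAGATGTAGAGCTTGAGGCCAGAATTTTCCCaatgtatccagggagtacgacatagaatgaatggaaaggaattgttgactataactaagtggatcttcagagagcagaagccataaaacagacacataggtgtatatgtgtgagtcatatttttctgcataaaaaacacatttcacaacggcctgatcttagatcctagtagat
Vmn1r15, chr6:57257899-57258148, + strand: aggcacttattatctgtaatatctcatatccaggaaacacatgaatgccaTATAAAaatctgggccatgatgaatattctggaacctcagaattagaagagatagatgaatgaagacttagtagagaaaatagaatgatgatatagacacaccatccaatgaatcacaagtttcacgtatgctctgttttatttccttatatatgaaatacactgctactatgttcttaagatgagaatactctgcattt
Vmn2r84, chr10:130394242-130394491, - strand: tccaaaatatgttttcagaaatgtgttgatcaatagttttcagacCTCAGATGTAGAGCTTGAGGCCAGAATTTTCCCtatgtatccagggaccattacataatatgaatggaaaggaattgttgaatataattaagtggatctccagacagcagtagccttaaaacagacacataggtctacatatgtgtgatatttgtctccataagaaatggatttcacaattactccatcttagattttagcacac

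The sequences before Vmn2r9, Vmn2r14 and Vmn2r84 were close copies. In a global alignment Vmn2r9 and Vmn2r14 had 216 identical positions of 250, an identity of 86.4%, and Vmn2r84, on another chromosome, was 84.9% identical to Vmn2r9 and 82.7% to Vmn2r14. The other pairs among the 7 sequences had identities between 49.5% and 57.9%, with gaps in every alignment. The 33-base run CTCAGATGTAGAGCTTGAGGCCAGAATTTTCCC was held by 5 of the 116 Vmn2r promoters, by 0 of the 206 Vmn1r promoters and by 5 of the 32851 promoters in the whole table (0.0152%). The other two carriers were Vmn2r8 and Vmn2r11, and no library had an interval over their promoters. The 3 aligned promoters with 82.7% to 86.4% identity were thus overlapped in all 5 lists (Vmn2r9), in both control lists (Vmn2r14) and in both MTX lists (Vmn2r84). The promoters of Vmn2r8 and Vmn2r11 were not aligned. The run was chosen after the sequences and intervals had been seen.

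Promoter sequence was found for 322 of the 351 receptor genes, 206 Vmn1r and 116 Vmn2r. The first 3 bases of the annotated gene were ATG in 87.9% of Vmn1r and 87.9% of Vmn2r promoters, against 5.83% of all 32851 promoters. The annotated start of most receptor genes is thus the start of the coding sequence, and the printed bases lie before that point, not before a mapped start of transcription. Receptor promoters were poor in G and C, with a median GC content of 36% for Vmn1r and 38% for Vmn2r, against 52.7% over all promoters. The median number of CG dinucleotides in 300 bases was 1 in both receptor classes and 7 over all promoters.

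Motifs were searched on both strands of the 300 bases, and a match is only a match of letters. TATAAA, the letters of a TATA box, was present in 42.2% of Vmn1r promoters, in 23.3% of Vmn2r promoters and in 13.6% of all promoters. TAATTA, the core bound by many homeodomain factors, was present in 7.28% of Vmn1r, 17.2% of Vmn2r and 5.29% of all promoters. ATGCAAAT, the octamer, was present in 1.94%, 6.03% and 1.74%, in the same order. CCCNNGGG, which contains the core that Ebf factors bind, was present in 0.485%, 19.8% and 13.7%. TATAAA and TAATTA can share their end bases, and a match was then counted for each. TAATTA and CCCNNGGG read the same on both strands.

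Of the 322 receptor promoters, 55 (17.1%) were overlapped by an interval of at least 1 KDM6A library and 267 were not. Over all 29107 promoters on the same autosomes the share was 15.2%. TATAAA was present in 43.6% of the former and 33.7% of the latter, and TAATTA in 20% and 8.99%. CCCNNGGG was present in 0 of the 55 and in 24 of the 267. No CG dinucleotide was found in 45.5% of the overlapped promoters and in 19.9% of the others. The receptor classes were not separated in these shares, and the differences were not tested. In the KDM6A libraries 8.62% to 12.9% of Vmn2r promoters were overlapped, against 2.91% to 5.83% of Vmn1r promoters. The motif shares differ by class, as given above, and 29.3% of Vmn2r and 21.4% of Vmn1r promoters had no CG dinucleotide. By library, the overlapped receptor promoters numbered 22 (6.83%) in control 1, 17 (5.28%) in control 2, 24 (7.45%) in MTX 1, 24 (7.45%) in MTX 2 and 25 (7.76%) in IgG. The shares of all promoters were 8.08%, 1.87%, 5.43%, 2.47% and 3.78% in the same order, so control 1 was the one list in which receptor promoters were below them.

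Most receptor genes of type 1 had no KDM6A interval, and those of type 2 had one more often. Of the 229 Vmn1r genes, 53 (23.1%) had an interval in their window in control 1, 25 (10.9%) in control 2, 26 (11.4%) in MTX 1, 38 (16.6%) in MTX 2 and 34 (14.8%) in IgG. Of the 122 Vmn2r genes, 56 (45.9%), 44 (36.1%), 43 (35.2%), 47 (38.5%) and 43 (35.2%) had one, in the same order. Over all 18954 protein-coding genes the share was 48.4% in control 1, 25.1% in control 2, 33.3% in MTX 1, 30.7% in MTX 2 and 27.3% in IgG. Vmn1r genes were below that share in each library, IgG included. Vmn2r genes were above it in 4 of the 5 lists, with control 1 as the exception.

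The 2 classes differ in length, which bears on these counts, since a longer window can hold more intervals. The annotated span had a median of 924 bp for Vmn1r and 24640.5 bp for Vmn2r. No KDM6A library had an interval at 141 Vmn1r genes (61.6%) and at 46 Vmn2r genes (37.7%), against 36.1% of the other protein-coding genes and 37.9% of the olfactory receptor genes. The Vmn2r share was thus near that background. All 4 KDM6A libraries had an interval at 4 Vmn1r genes (1.75%) and 23 Vmn2r genes (18.9%), against 12.2% of all protein-coding genes and 2.55% of the 1020 olfactory receptor genes, the gene family most like them in layout. Of these 27 receptor genes, all 4 Vmn1r and 21 of the 23 Vmn2r also had an IgG interval. Both control libraries and no MTX library had an interval at 4 Vmn1r and 3 Vmn2r genes (2.32% of all protein-coding genes had this pattern). Both MTX libraries and no control library had one at 5 Vmn1r genes and 1 Vmn2r gene (1.35% of all).

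The share of window bases covered by intervals takes length into account. Vmn1r windows were covered over 5.69% of their bases in control 1, 3.25% in control 2, 3.41% in MTX 1, 5.43% in MTX 2 and 4.77% in IgG. Vmn2r windows were covered over 7.13%, 6.88%, 6.0%, 7.47% and 7.30% in the same order. Windows of all other protein-coding genes were covered over 6.42%, 3.50%, 4.04%, 4.62% and 3.99%, and those of olfactory receptor genes over 8.83%, 6.99%, 5.72%, 8.73% and 8.82%. IgG thus lay within the range of the 4 KDM6A libraries in both receptor classes.

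**Figure D1:**
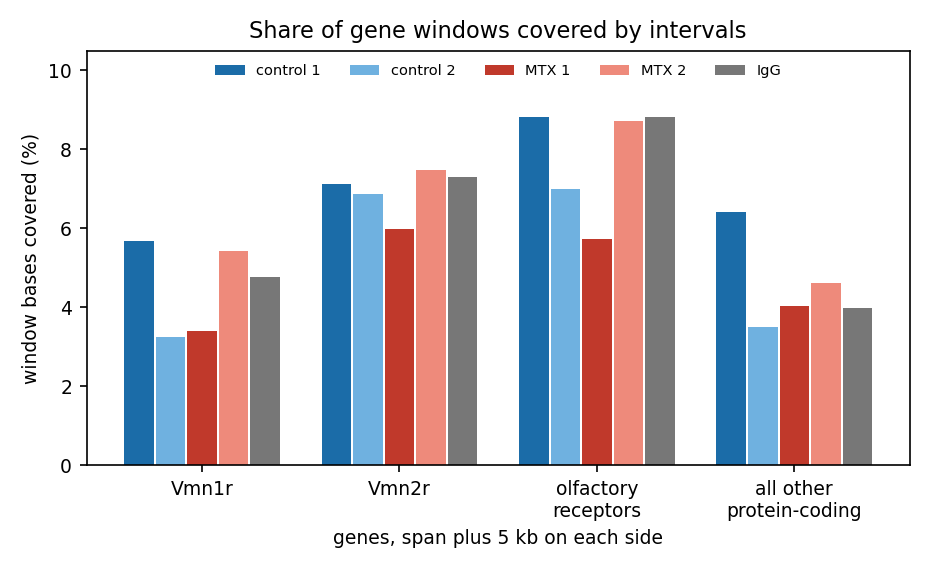
Percent of window bases (gene span plus 5 kb on each side) covered by intervals, for Vmn1r genes, Vmn2r genes, olfactory receptor genes and all other protein-coding genes, the olfactory ones included. Each bar is 1 library, with no error bar, since a library gives 1 value. The grey IgG bar is as high as KDM6A bars in both receptor classes, at 4.77% and 7.30%.

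Taking both classes together, coverage of receptor windows over that of the other protein-coding windows was 1.03 in control 1, 1.58 in control 2, 1.24 in MTX 1, 1.45 in MTX 2 and 1.59 in IgG. The ratio was above 1 in all 4 KDM6A libraries, and the IgG ratio was higher than each of them. The mean log2 ratio over the 4 KDM6A libraries was 0.39 ± 0.27 (SD, n = 4; two-sided exact sign-flip permutation test, p = 0.13, the smallest that 4 libraries can give). Without the intervals that overlap an IgG interval the mean log2 ratio was 0.01 (exact permutation p = 1), with control 1 at a ratio of 0.792. Without the cluster Vmn2r111 to Vmn2r117 the ratios were 0.941, 1.33, 1.05 and 1.29 in the KDM6A libraries and 1.39 in IgG (mean log2 ratio 0.19, exact permutation p = 0.375). Against olfactory receptor windows, receptor windows were less covered, with ratios of 0.746, 0.790, 0.878 and 0.768 and 0.720 in IgG.

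Coverage of Vmn2r windows over that of Vmn1r windows was 1.25 in control 1, 2.12 in control 2, 1.76 in MTX 1, 1.38 in MTX 2 and 1.53 in IgG. The mean log2 ratio was 0.67 ± 0.34 (SD, n = 4; two-sided exact sign-flip permutation test, p = 0.13, which is the smallest possible). The IgG ratio was inside the KDM6A range. Without the intervals that overlap an IgG interval the mean log2 ratio was 0.23 (exact permutation p = 0.38), with control 1 at a ratio of 0.933. With gene spans alone and no flank it was 0.46 (exact permutation p = 0.25), with MTX 2 at a ratio of 0.888. A single Vmn1r cluster on chromosome 7 weighed on it: without Vmn1r91 to Vmn1r183 the ratios were 0.874, 1.5, 1.24 and 0.927, and 1.16 in IgG (mean log2 ratio 0.15, exact permutation p = 0.5).

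MTX and control libraries did not differ in either ratio beyond their spread. The log2 ratio of receptor windows to other windows was 0.35 ± 0.44 in control and 0.43 ± 0.16 in MTX (SD, n = 2 each; exact permutation p = 1). The log2 ratio of Vmn2r to Vmn1r windows was 0.70 ± 0.53 and 0.64 ± 0.25 (exact permutation p = 1). With 2 libraries against 2, the smallest p an exact test can give is 0.33, so no difference between the treatments could have passed at the level of single values.

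Receptor genes no more than 1 Mb from the next one were grouped into 26 clusters, of which 14 had 5 or more genes and held 330 of the 351. Each of the 14 had at least 1 interval in every list, and their coverage differed widely. IgG coverage was within the range of the 4 KDM6A libraries in 10 of the 14, above all of them in 3 and below all of them in 1. No list had an interval at 6 small clusters, which hold 8 genes in all and at most 2 each.

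The most covered of the 14 was the cluster of 8 Vmn2r genes, Vmn2r111 to Vmn2r117, at chr17:22547941-23479597. It was covered over 22.8% of its window bases in control 1, 31.1% in control 2, 27.8% in MTX 1, 29.4% in MTX 2 and 29.8% in IgG. The groups overlapped, and IgG was as covered as the KDM6A libraries. Next among the clusters of 5 or more genes came the 10 Vmn2r genes of chromosome 5, Vmn2r8 to Vmn2r17 (chr5:108797193-109453387), with 15.4%, 11.8%, 8.71%, 21.1% and 10.8% in the same order. All 10 of these genes had an interval in at least 1 list.

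Vmn1r clusters on chromosome 6 were covered unevenly between libraries. Vmn1r32 to Vmn1r39, 8 genes at chr6:66552183-66805332, were covered over 13.4%, 7.42%, 13.9%, 12.8% and, in IgG, 20.7%. Vmn1r4 to Vmn1r31, 28 genes at chr6:56923914-58472878, were covered over 8.56%, 4.48%, 2.99%, 10.1% and 9.78%. Vmn1r40 to Vmn1r54, 15 genes at chr6:89711261-90270053, were covered over 7.56%, 9.09%, 3.53% and 8.03%. This was the one cluster in which IgG, at 1.58%, was below every KDM6A library.

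Among the clusters of 5 or more genes, the 2 largest had the lowest mean coverage over the KDM6A libraries. The 86 genes from Vmn1r91 to Vmn1r183 at chr7:20101158-24055691 were covered over 1.25%, 0.84%, 0.85%, 0.70% and 1.97%, and 79 of them had no interval in any list. The 52 genes at chr7:7212996-13220289, of which 24 were Vmn1r and 28 Vmn2r, were covered over 2.31%, 1.35%, 2.97%, 1.84% and 2.31%. The 36 Vmn1r genes of chromosome 13, Vmn1r188 to Vmn1r223, had 10 intervals in control 1, 2 in control 2, 1 in MTX 1, 5 in MTX 2 and 2 in IgG. Their coverage was 6.39% in control 1 and 3.63% in MTX 2, and 1.43%, 0.77% and 1.43% in control 2, MTX 1 and IgG, so the spread within each group was wider than the gap between the groups.

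The other clusters of 5 or more genes lay between these. The 36 genes at chr17:17703941-21314886, 14 Vmn1r and 22 Vmn2r, were covered over 7.23%, 3.95%, 5.08%, 6.21% and 5.24%. The 15 genes from Vmn2r65 to Vmn2r79 on chromosome 7 were covered over 8.38%, 6.18%, 7.87%, 6.68% and 6.97%, and the 8 Vmn2r genes at chr7:41399732-43048106 over 7.19%, 7.94%, 7.18%, 6.92% and 7.32%. These last values were the most even between libraries. The 12 genes at chr7:5146490-6011010, 11 of them Vmn1r, were covered over 5.93%, 1.38%, 4.8%, 8.10% and 4.85%.

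Vmn2r19 to Vmn2r27, 9 genes at chr6:123308333-124231784, were covered over 5.25%, 8.84%, 1.88%, 6.36% and 2.23%. Vmn2r1 to Vmn2r7, 7 genes at chr3:64078172-64719602, were covered over 4.09%, 1.86%, 2.34%, 1.86% and, in IgG, 7.31%. They hold Vmn2r1, which belongs to the small group of type 2 receptors that are expressed broadly together with other type 2 receptors. Smaller clusters can reach high values: the 4 genes Vmn2r84 to Vmn2r87 on chromosome 10 were covered over 6.52%, 16%, 27.8%, 14.5% and 11.1%.

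**Figure D2:**
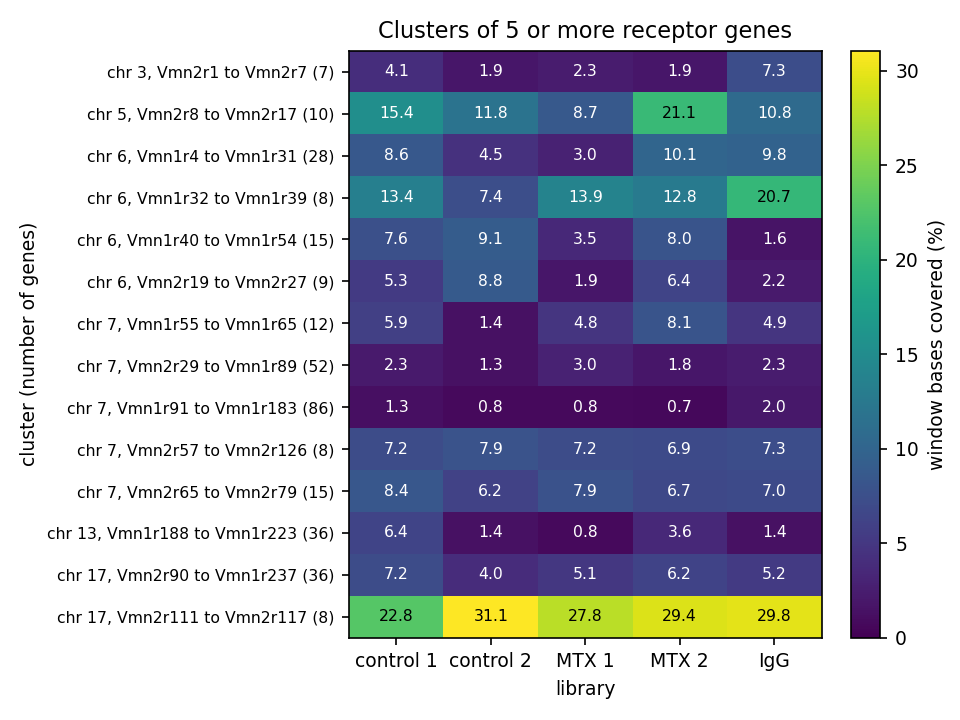
Percent of window bases covered by intervals in each of the 14 clusters of 5 or more receptor genes (rows, with the number of genes) and each library (columns). The bottom row, Vmn2r111 to Vmn2r117, has values from 22.8% to 31.1% in all 5 libraries, while Vmn1r91 to Vmn1r183 has at most 1.97%.

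The cluster Vmn2r111 to Vmn2r117 was described more closely, since it alone held 3 of the 10 regions with intervals of all 4 KDM6A libraries. It had 18, 10, 14 and 15 intervals in the KDM6A libraries and 12 in IgG. Their enrichment over background was low, with median deposited folds of 1.46, 1.25, 1.26, 1.30 and 1.23. Background reads within these intervals were dense, at 34.8, 34.8, 35.4, 35.7 and 35.2 reads per kb, against 24.1, 27.3, 25.9, 27.3 and 25.9 over all receptor intervals. In the cluster Vmn2r8 to Vmn2r17, the next in coverage, they were at 24.9, 27.0, 23.3, 26.1 and 28.8 reads per kb. The part of dense input reads in the coverage of Vmn2r111 to Vmn2r117 was not tested.

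Vmn2r111 (NCBI gene 210876, chr17:22547941-22573273) and Vmn2r112 (NCBI gene 628185, chr17:22601148-22619133) were the receptor genes with the most covered bases. Of the 35333 bp in the window of Vmn2r111, intervals covered 21133 bp in control 1, 30260 bp in control 2, 24133 bp in MTX 1, 24933 bp in MTX 2 and 30733 bp in IgG. Of the 27986 bp in the window of Vmn2r112, they covered 23386, 26386, 24386, 25186 and 23986 bp. Both genes were covered over most of their length in each library, and by intervals whose ends differed between libraries.

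**Figure D3:**
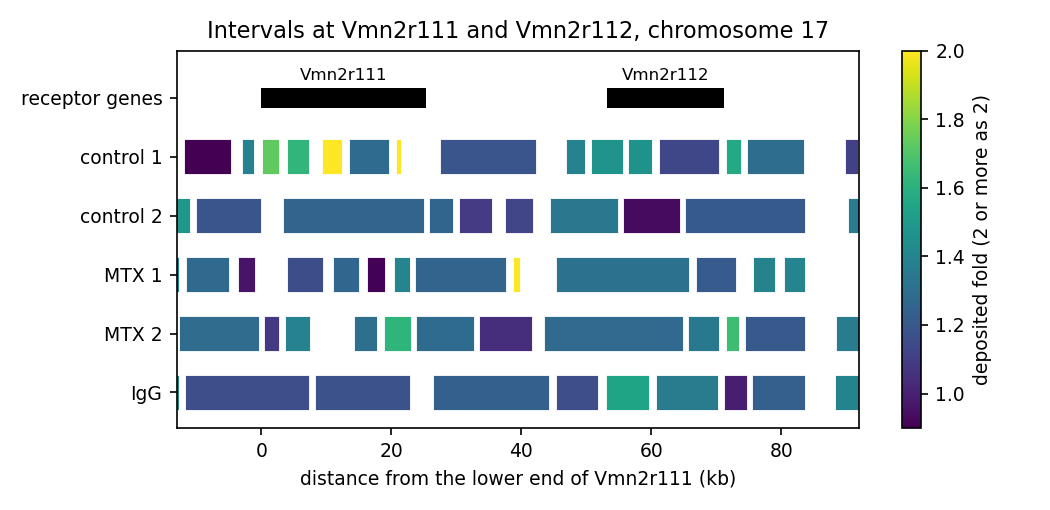
Intervals of each library around Vmn2r111 and Vmn2r112 on chromosome 17, by distance from the lower end of Vmn2r111 in kb, with the gene spans in black and the deposited fold of each interval as colour. Intervals fill most of the stretch in the KDM6A libraries and in IgG alike, and most are dark, which is a fold well under 2.

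Vmn2r74 (chr7:85951867-85961482) and Vmn1r235 (chr17:21260427-21262863) were likewise covered in all 5 lists. Intervals covered 16616, 18016, 16416, 17816 and 18882 bp of the 19616 bp window of Vmn2r74. They covered 10037, 12437, 10663, 12437 and 11237 bp of the 12437 bp window of Vmn1r235, which is the whole window in control 2 and MTX 2. Vmn2r80 followed with 16200, 6200, 6200, 10133 and 14933 bp of 56118 bp, and Vmn2r1 with 8000, 6200, 7800, 6200 and, in IgG, 21000 bp of 152676 bp. In these last cases most of the window was not covered.

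KDM6A intervals were joined across the 4 libraries into regions wherever they met or overlapped, and 309 of the 73553 regions lay at receptor windows. All 4 libraries had 10 of them (3.24%), against 1.58% of all regions. Both control libraries and no MTX library had 15 (4.85%, against 2.55%), and both MTX libraries and no control library had 12 (3.88%, against 1.93%). A single library had 210 (68.0%, against 78.8%). The shares of the first 3 classes were each above the background. Without intervals that overlap IgG, control-only regions numbered 14 and MTX-only regions 7, and with windows of 20 kb they numbered 26 and 15.

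Regions that a control and an MTX library had in common were about as many as those of 1 group. Among receptor regions that exactly 2 libraries had, 15 came from both controls and 12 from both MTX libraries. Control 1 had 11 with MTX 1 and 14 with MTX 2, and control 2 had 6 with MTX 1 and 12 with MTX 2. The control-only and MTX-only counts were thus inside or next to the range of 6 to 14 that mixed pairs gave. As shares, both controls had 4.85% of receptor regions, against 2.54% of regions elsewhere, and both MTX libraries 3.88%, against 1.92%. For control 1 the shares were 3.56% against 3.74% with MTX 1 and 4.53% against 4.02% with MTX 2. For control 2 they were 1.94% against 1.35% with MTX 1 and 3.88% against 1.88% with MTX 2. Same-group pairs and control 2 with MTX 2 were thus further above the share elsewhere than mixed pairs with control 1.

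Of the 10 regions of all 4 KDM6A libraries, 8 overlapped an IgG interval (80%, 95% exact interval 44.4% to 97.5%), against 73.2% of such regions overall. The interval covers counting error only. The share was 2 of 15 (13.3%) for control-only regions, 5 of 12 (41.7%) for MTX-only regions and 28 of 210 (13.3%) for those of 1 library. Among regions elsewhere the shares were 21.0%, 23.1% and 10.3% in the same order, and the differences were not tested. The IgG library came from MTX cells. In 7 of the 10 there were bases that intervals of all 4 libraries covered, while in the other 3 the intervals only formed a chain.

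The 2 regions of all 4 KDM6A libraries without IgG lay at Vmn2r27 and Vmn2r58. At Vmn2r27 (chr6:124219201-124225400, within the gene's span) the fold was 1.22 in control 1, 1.33 in control 2, 4.47 in MTX 1 and 1.53 in MTX 2. The intervals there were 3600, 3400, 800 and 1400 bp wide with 98, 115, 50 and 64 reads, and no base was common to all 4. At the lower end of Vmn2r58 (chr7:41831001-41837000) the folds were 1.61, 1.32, 2.10 and 1.29, with 1200 bp in common, and the groups overlapped.

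Among those that IgG also had, the widest was at Vmn2r74 (chr7:85941001-86014800). It held 9, 7, 9 and 6 intervals of control 1, control 2, MTX 1 and MTX 2. Of these, 4, 3, 3 and 3 touched the 19616 bp window of the gene, and the others lay beyond it. Over the whole region the folds were 1.61 in control 1, 1.33 in control 2, 1.27 in MTX 1, 1.40 in MTX 2 and 1.35 in IgG, with 27800 bp in common to the KDM6A libraries. At Vmn2r112 (chr17:22591401-22631600) they were 1.31, 1.16, 1.31, 1.28 and 1.27, with 25800 bp in common. IgG was inside the range of the KDM6A libraries at both.

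At Vmn2r111 (chr17:22551201-22590200) the folds were 1.37, 1.21, 1.24, 1.27 and 1.19, with 14400 bp in common. At Vmn2r9 (chr5:108842801-108859000), the gene whose upstream sequence holds the 33-base run, they were 1.20, 1.21, 1.33, 1.46 and 1.18, with 1400 bp in common. Both MTX values were above both control values there, while the reads summed over the region had a log2 change of -0.68 ± 0.64 SE in MTX (edgeR adjusted p = 0.998). Vmn1r52 (chr6:90163601-90177600, beside the gene) had folds of 2.05, 1.79, 1.59, 1.67 and 1.37. The control 1 interval (chr6:90163801-90165600) and the IgG interval lay outside the gene's window, so their folds come from beyond it. Both MTX values were below both control values, but the control 1 value is thus not one of the window. The summed reads of the region had a log2 change of 1.19 ± 0.62 SE (edgeR adjusted p = 0.998). Vmn2r18 (chr5:151562201-151569200) had 0.988, 1.13, 1.64, 1.59 and 1.62, with both MTX values above both control values. The log2 change there was 0.19 ± 0.38 SE (edgeR adjusted p = 0.998), and neither control interval had an authors' adjusted p under 0.05. Neither Vmn1r52 nor Vmn2r18 had a base common to all 4 libraries.

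**Figure D4:**
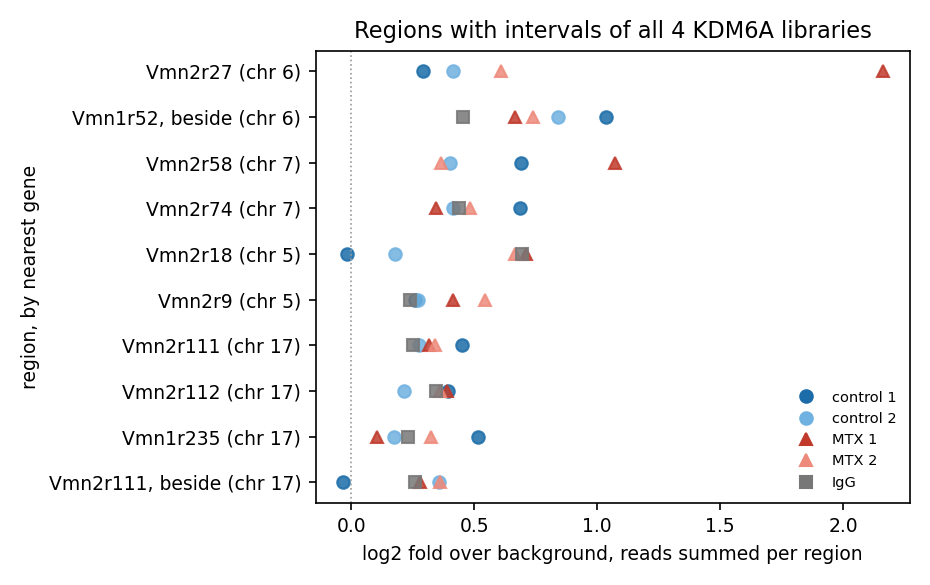
Log2 fold over background of the 10 receptor regions with intervals of all 4 KDM6A libraries, computed from the reads summed over each library's intervals in the region. Circles are control, triangles MTX and squares IgG (8 regions), "beside" marks a region outside the gene's span, and the fold of 4.47 in MTX 1 at Vmn2r27 stands alone. At Vmn1r52 the control 1 and IgG intervals lay outside the gene's window.

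Reads summed over a library's own intervals were compared between MTX and control at all 2132 regions of the genome that 4 KDM6A libraries had. All chromosomes were included in this comparison, chromosome 11 too, while 1163 such regions lay on the autosomes used in the other results. edgeR's quasi-likelihood test with Benjamini-Hochberg adjustment called 0 regions higher and 0 lower in MTX (0% of 2132), with 73 at an unadjusted p under 0.05 and a smallest adjusted p of 0.998. DESeq2 called 8 higher and 8 lower, none of them at a receptor. Of the 10 receptor regions, 3 had a log2 change above 0 and 7 below, with a median of -0.09, against -0.03 over all regions. The region at Vmn2r27 had the only unadjusted p under 0.05 among them (log2 change -1.10 ± 0.31 SE, edgeR adjusted p = 0.998). A sum over intervals moves with the width that was called, and the MTX intervals there were the narrower ones, as given above.

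Control-only regions were led by one 391 bp from Vmn1r65 (chr7:6011401-6014200), with folds of 3.97 in control 1 (57 against 19 background reads) and 1.85 in control 2 (96 against 54). At Vmn2r31 (chr7:7387001-7388400) they were 2.11 and 2.59, and an IgG interval with a fold of 1.84 overlapped it. At Vmn2r120 (chr17:57523201-57528800) they were 2.69 and 1.72. Vmn2r31 was the one of these 3 with the higher value in control 2.

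The region beside Vmn1r228 (chr17:20766601-20773000) had folds of 2.38 and 1.91, but its 2 intervals only touched and had no base in common. The control 1 interval (chr17:20766601-20769400) ended before the gene's window began, so only the control 2 interval of this region lay at the receptor. Vmn1r51 (chr6:90130201-90135000) had 2.85 and 1.41, and Vmn2r14 (chr5:109220401-109226400) had 2.56 and 1.44. The Vmn2r14 region covers the upstream sequence printed above. In all but Vmn2r31 of the 6, control 1 had the higher fold, as it did over its whole list.

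MTX-only regions were led by one 3559 bp from Vmn1r81 (chr7:12252801-12256200), with folds of 2.43 in MTX 1 (93 against 41 reads) and 2.66 in MTX 2 (107 against 45). At Vmn2r84 (chr10:130391601-130396600) they were 1.97 and 2.19, and this region covers the upstream sequence of Vmn2r84. At Vmn1r15 (chr6:57256001-57261600) they were 1.97 and 1.88, with 3800 bp in common that cover the gene and its upstream sequence. These values lay closer together than those of the control-only regions.

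Beside Vmn1r59 (chr7:5455801-5464200) the folds were 1.86 and 1.80, with no base in common. Beside Vmn1r35 (chr6:66684201-66688200) they were 2.23 and 1.39, and at Vmn2r10 (chr5:108992601-109002400) 1.87 and 1.5. None of these 6 overlapped IgG. Cluster Vmn2r84 to Vmn2r87 on chromosome 10 held 3 of the 12 MTX-only regions and no control-only region. Of these, the regions at Vmn2r87 and Vmn2r85 overlapped IgG intervals, with IgG folds of 1.68 and 1.28, and that at Vmn2r84 did not. In the region at Vmn2r85 the MTX 1 interval (chr10:130435401-130439200) lay outside the receptor windows, so only its MTX 2 interval lay at a receptor. In the same cluster, the promoter of Vmn2r86 was overlapped in both control libraries only.

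Single intervals at receptor windows were moderately enriched. The authors' fold divides immunoprecipitated by background reads and scales the quotient by a constant of the list. It had a median of 1.83 in control 1, 1.5 in control 2, 1.5 in MTX 1, 1.59 in MTX 2 and 1.6 in IgG. The medians over all other intervals were 1.66, 1.45, 1.47, 1.56 and 1.54. Vomeronasal receptor intervals had the higher median in each list, IgG included. Olfactory receptor intervals had medians of 1.82, 1.56, 1.68, 1.73 and 1.71 in the same order. These were above the vomeronasal medians in every list but control 1. The highest folds of vomeronasal receptor intervals were 4.26, 4.17, 4.47, 4.91 and 4.30.

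Vmn1r intervals had median folds of 1.90, 1.53, 1.53, 1.59 and 1.79, and Vmn2r intervals of 1.82, 1.49, 1.48, 1.59 and 1.52. In MTX 2 the classes had the same median to 3 digits. The authors' adjusted p was under 0.05 for 154 (93.9%), 87 (91.6%), 92 (92.9%), 119 (92.2%) and 111 (93.3%) of the receptor intervals, against 87.1%, 84.3%, 82.0%, 88.3% and 86.9% of the others. Of olfactory receptor intervals 96.0%, 93.0%, 91.3%, 96.8% and 96.6% were under 0.05, a higher share than the vomeronasal one in every list but MTX 1. Folds of 2 or more were found for 39.6% of the vomeronasal intervals in control 1 and for 11.6%, 16.2%, 18.6% and 21.0% in the other lists. Control 1 thus stood apart from the other 4, as the constant behind its folds did (1.32, against 1.04 to 1.12).

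**Figure D5:**
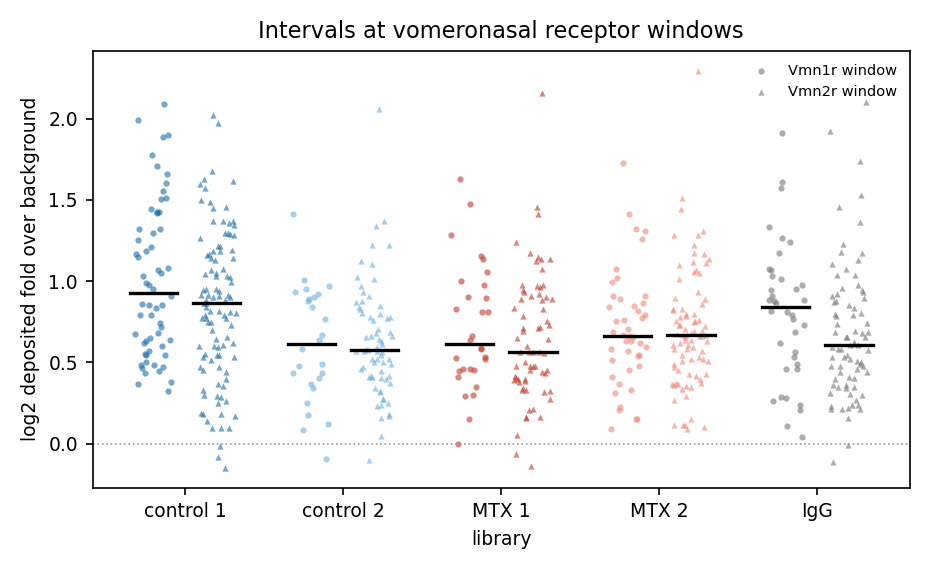
Log2 deposited fold over background of every interval at Vmn1r (circles) and Vmn2r windows (triangles), by library, with the median of each class as a bar. Points are spread sideways at random, control 1 has the highest bars, and IgG bars lie among those of the KDM6A libraries.

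On the log2 scale the median fold was 0.88 in control 1, 0.58 in control 2, 0.59 in MTX 1 and 0.67 in MTX 2. The means were 0.73 ± 0.21 and 0.63 ± 0.05 (SD, n = 2 each), a difference of -0.10 (exact permutation p = 1). Receptor intervals made up 0.419% and 0.594% of the control lists and 0.50% and 0.555% of the MTX lists on these autosomes, and 0.625% of the IgG list. The means were 0.506% ± 0.124 in control and 0.527% ± 0.0389 in MTX (SD, n = 2 each), a difference of 0.0211 percentage points (exact permutation p = 1). Both MTX shares lay between the 2 control shares, and IgG was above all 4.

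Of the 12 KDM6A intervals that made up the 3 highest folds of each library, 7 overlapped no other KDM6A list and 5 overlapped 1. In MTX 2 the highest was within Vmn2r61 (chr7:42298401-42300000, fold 4.91, 92 against 21 reads). In MTX 1 it was the interval within Vmn2r27 (chr6:124220201-124221000, fold 4.47, 50 against 12 reads) and in control 1 one near Vmn1r18 (chr6:57395201-57396600, fold 4.26, 58 against 18 reads).

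In control 2 it was within Vmn2r20 (chr6:123393001-123394000, fold 4.17, 60 against 15 reads). In IgG it was within Vmn2r16 (chr5:109338601-109340400, fold 4.30, 87 against 21 reads). The highest IgG fold was above those of both control libraries and below those of both MTX libraries. These intervals are ranked by the authors' own folds and carry no replicate.

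In each of the 4 KDM6A lists, the overlap of receptor intervals with IgG was within or close to the range of their overlaps with other KDM6A lists. Of the control 1 intervals at receptors, 30.5% overlapped control 2, 25% MTX 1, 29.3% MTX 2 and 31.7% IgG. For control 2 the shares were 38.9% with control 1, 27.4% with MTX 1, 40.0% with MTX 2 and 33.7% with IgG. For MTX 1 they were 33.3%, 32.3%, 39.4% with MTX 2 and 32.3% with IgG, and for MTX 2 34.9%, 32.6%, 28.7% with MTX 1 and 37.2% with IgG. Away from receptors every one of these shares was lower: 12.1% to 16% for control 1, 20.5% to 28.3% for control 2, 16.8% to 28.1% for MTX 1 and 17.5% to 26.1% for MTX 2, the overlap with IgG included. The difference between receptors and the rest was not tested.

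Intervals just inside and just outside the 5 kb limit of the windows were as follows. In control 1, 100 intervals overlapped a gene span, with a median fold of 1.88, and 64 lay outside but within 5 kb, with 1.77. Just outside the limit, from 5 to 10 kb, there were 38 with a median of 1.85. In MTX 2 the numbers were 82, 47 and 23, with medians of 1.58, 1.63 and 1.6. In control 2 they were 61, 34 and 24 (1.48, 1.55 and 1.49), in MTX 1 66, 33 and 26 (1.51, 1.5 and 1.66), and in IgG 74, 45 and 15 (1.58, 1.73 and 1.55). Widths of the 606 intervals ran from 200 to 32800 bp, 15 overlapped a vomeronasal receptor pseudogene and none lay in an olfactory receptor window.

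Other genes of the vomeronasal system were listed by their roles, and none of the lists stood above the shares of all genes in every library. Those shares were 48.4% in control 1, 25.1% in control 2, 33.3% in MTX 1, 30.7% in MTX 2 and 27.3% in IgG. All 4 KDM6A libraries had an interval at 12.2% of all genes. Gene length was not taken into account in the counts that follow. Of 11 signalling genes, 5, 4, 3, 5 and 3 had an interval in control 1, control 2, MTX 1, MTX 2 and IgG, and 3 had one in all 4 KDM6A libraries. These were Ano2, a calcium-activated chloride channel, with folds of 2.83, 1.28, 1.28, 1.62 and 1.45, Gnao1, with 1.52, 1.22, 1.33, 1.39 and 0.990, and Gnb1, a G protein beta subunit, with 1.37, 1.27, 1.10, 1.53 and 1.24. In Gnao1 the IgG value was the lowest of the 5.

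Of 7 formyl peptide receptor genes, a family of which only some members are receptors of the organ, 2, 1, 0, 2 and 0 had an interval. The genes with intervals were Fpr1 and Fpr2, and the other 5 had none in any list. Of 9 class Ib histocompatibility genes of the H2-M group, which are coexpressed with type 2 receptors, 4, 4, 2, 4 and 3 had one. H2-M1 had one in all 5 lists, with folds of 1.81, 1.83, 1.38, 1.76 and, in IgG, 2.65. Of 37 ligand genes (major urinary proteins and exocrine gland-secreted peptides) 7, 7, 2, 5 and 5 had one, and 25 had none in any list.

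Esp34 had folds of 1.26, 1.49, 1.28, 1.34 and 1.37 and Mup5 of 1.49, 1.05, 1.27, 1.16 and 1.14, both with IgG among the KDM6A values. Of 7 transcription factor genes of the lineage, 5, 2, 1, 2 and 2 had an interval and none had one in all 4 KDM6A libraries. Meis2 had intervals in all lists but MTX 1, with folds of 1.43 in control 1, 1.35 in control 2, 1.49 in MTX 2 and 2.38 in IgG. Lhx2 had them in all lists but control 2, with 1.16 in control 1, 0.929 in MTX 1, 1.12 in MTX 2 and 1.30 in IgG. Tfap2e, a factor of the basal vomeronasal neurons, had intervals in both control libraries only, with folds of 2.21 and 1.66. Of all protein-coding genes 2.32% had intervals in both control libraries and no MTX library.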

How the data were processed

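Interval lists of 4 KDM6A libraries and 1 IgG library were used, grouped by sample titles, and 4 inputs had no list used here. Per the submitters' processing notes, Bowtie2 was the aligner and mm10 the build. The program that called intervals, its settings and its treatment of reads with several positions are not given in the sources used here. The authors' lists, called per library on a 200 bp grid, hold 4 kinds of values. The deposited counts are whole immunoprecipitated and background reads per interval, not normalized. The deposited fold is the ratio of these counts times 1 constant per list. The deposited p-value and adjusted p-value of each interval were used as given, and lists were not filtered on them. The IgG library and MTX library 1 had equal background counts in all 52 intervals that they had in common, so they share an input.

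Genes came from the RefSeq table of GRCm38.p6, which gives spans without exons. Left out were 98 genes, 3 of them receptors, whose coordinates lie before base 3000001, where no interval begins. Coverage, overlaps (1 bp or more), merged regions and exact permutation tests used Python 3.11.15, pandas 2.3.3, numpy 2.4.6 and scipy 1.17.1, with matplotlib 3.10.9 for plots. Regions of all 4 KDM6A libraries were tested with edgeR 4.0.16 (TMM, filter on low counts), with DESeq2 1.42.0 as an alternative, in R 4.3.3. The scripts were tested on simulated data. Shares have exact (Clopper-Pearson) 95% intervals.

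Named were all clusters of 5 or more genes, up to 6 regions of each class by mean log2 fold, the 3 highest folds of each list with at least 30 reads, and up to 6 genes with intervals of all 5 lists by covered bases. The 2 shared regions beyond that limit were plotted only. The receptor genes and lists were chosen with earlier results of these data known. Ebf1 lies on chromosome 11 and was left out of the transcription factors. The labels do not tie the 2 libraries of a group to separate cultures, so their spread may be technical. Libraries were amplified by PCR, so reads are not independent molecules, and intervals cover counting error only.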

Additional observations from a re-analysis of the deposited data

How the results depend on the processing

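The 9 results were recomputed under 85 alternatives, 4 of which (leaving out a cluster) were chosen after seeing the data. Of these, 63 kept the direction of a difference or ratio, or a count within 1.5 times, 16 counts or shares moved more and 6 values changed sign. A kept direction can hide a large change: the log2 coverage ratio of receptor to other windows (0.39) ran from 0.01 to 0.95 and that of Vmn2r to Vmn1r windows (0.67) from 0.15 to 0.84. The difference in list share between MTX and control (0.0211 percentage points) was -0.0200 with windows of 20 kb and -0.00285 in the better 50% of each list, and ran from -0.0665 (without control 1) to 0.109 with 1 library left out. The difference in median log2 fold (-0.10) ran from -0.25 to 0.044, and was above 0 without control 1. The log2 coverage ratio was -0.33 with olfactory receptors as the comparison. Regions of all 4 KDM6A libraries (10) numbered 16 with windows of 20 kb, 4 in the better 50%, 2 without intervals that overlap IgG, and 10 to 17 with 1 library left out, the 17 being without MTX 1. Control-only regions (15) numbered 9 with no flank, 26 with 20 kb, 9 in the better 50%, and 17 to 101 with 1 library left out. MTX-only regions (12) numbered 7 without intervals that overlap IgG and 17 to 67 with 1 library left out. Fewer libraries set a looser rule for these counts, and the shares of all regions under the alternatives are not given here. In the better 50% of the lists 100% of the shared receptor regions overlapped IgG. edgeR's 0 calls became 16 with DESeq2 and 0 to 3 with 1 library left out (3 without control 1, 1 without control 2), none at a receptor. The other causes were not tested. With the replicate block the share and fold differences were 0.0211 and -0.10 (exact permutation p = 1 for both) and edgeR made 0 calls. Same-numbered libraries share only a number: their deviations from the group means had a correlation of 0.13 over 2132 regions.

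Limits are the 2 libraries in each group, the single IgG library from MTX cells, the unknown full depth, and the possible assignment of reads among near-identical genes.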
